A study of Mus musculus with 23 samples.

Results

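The protocadherin genes form the largest subgroup of the cadherin superfamily, and 71 of the 23400 genes measured here were taken as members because their symbol starts with Pcdh. Of these, 59 lie in the clusters Pcdha (15 genes), Pcdhb (22 genes) and Pcdhg (22 genes), and 12 are non-clustered genes that stand alone in the genome. The members were taken by symbol and not by their values, although earlier results of these data were known. They were followed through 23 single neurons of the arcuate hypothalamus, a nucleus at the base of the brain that takes part in the control of feeding. The neurons came from 2 young adult male mice of mixed background. All cells were of 1 genotype, vGLUT2-IRES-Cre::loxSTOPlox-L10-GFP, in which Cre made under the gene of the glutamate transporter VGLUT2 removes a stop cassette and switches on GFP fused to the ribosomal protein L10. GFP therefore also stays on in a cell that used the driver gene at an earlier time. The mice carried no further treatment or mutation in the labels, and cells were not tied to a mouse, so the 23 cells are 1 group without biological replicates and no test between cells was made. Cells are numbered 1 to 23. Cells 1 to 15 carry a JCb5.2 title (set 1, 15 cells) and cells 16 to 23 a JCb6 title (set 2, 8 cells), a difference that the labels leave unexplained.

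Protocadherins are transmembrane proteins whose extracellular cadherin repeats bind the same protein on a neighbouring cell. The clustered genes are known for the way neurons choose among them. Each alpha or gamma gene is a variable exon with its own promoter that is spliced to constant exons shared by its whole cluster, whereas each beta gene is a complete coding exon. Neurons are known to switch on a combination of alternate genes, by a choice that differs from cell to cell and depends on DNA methylation and CTCF at the promoters, while the C-type genes at the ends of the alpha and gamma clusters follow other rules and can be used by most cells of a type. The resulting surface identity lets a neuron recognise and avoid its own branches. The non-clustered genes are each regulated on their own and mark regions and cell types of the brain. They include the delta-1 group and the delta-2 group, which differ in their number of cadherin repeats and in the motifs of their cytoplasmic tails.

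The structure of the clusters limits how well a transcript can be assigned. All 3 clusters lie on chromosome 18 in mm10, Pcdha from 36930285 to 37187660, Pcdhb from 37264998 to 37521419 and Pcdhg from 37661945 to 37841872. These bounds leave out Pcdha4-g, which is counted with the alpha genes by its symbol alone. Its listed locus runs from 36952741 to 37840200, through the beta cluster and into the gamma cluster. In the GENCODE M21 annotation of that build, a median of 53.6% of the exonic bases of an alpha transcript (48.6 to 58.9% over 14 annotated members) also belonged to other members. For the gamma genes the median was 44.9% (41.7 to 45.9%, 22 members). No exonic base of a beta gene was shared with another member, and 20 of the 22 beta transcripts had a single exon. Bases were compared by genomic position, and the likeness of sequence between members was not measured. Reads from the constant exons do not tell the alpha or gamma genes of a cell apart, so these values rest on how Cufflinks divided them. The GENCODE M21 transcript closest to the locus listed as Pcdha10 is filed there under Pcdha11, like that of Pcdha11 itself, and the names of the deposited table are kept here. In cell 8, Pcdha6 and Pcdha10 were listed at the same 4.62 FPKM. FPKM, the deposited unit, counts the fragments of a transcript per kilobase of its length and relative to all mapped fragments of that library. It allows levels of genes of different length to be set side by side. Of the alpha values, 69.6% were above 0 but under 0.01 FPKM, and of the gamma values 60.1%, against 0.960% of the values of all genes. The beta genes had no such residues, and 68.8% of their values were listed at 0. A member was counted in a cell at or above 1 FPKM.

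The cells were a mostly even set for such counts. The median cell had 7090 genes at or above 1 FPKM, and cell 17 stood apart with 4054, against 6004 in the next lowest, cell 19. All 12 neuronal markers reached 1 FPKM somewhere, 10 of them in 12 or more cells, and their summed level was 1111 to 4464 FPKM per cell. Among markers of other cells, 1 of 7 for astrocytes (Aldoc, 21 cells), 1 of 6 for tanycytes and ependyma (Vim, 14 cells) and 2 of 4 for red blood cells (Hba-a2 and Hbb-b2) did so in 12 or more. No marker of oligodendrocytes, their precursors, microglia, endothelium or mural cells did, and Mog, Olig1, Olig2, C1qa, Cldn5, Kdr and Dcn were listed at 0 in every cell. Whether RNA from other cells adds to the members was not tested.

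Most protocadherin genes were found somewhere among the 23 cells, but the clustered genes were spread thinly and the non-clustered genes widely. At least 1 cell reached 1 FPKM for 58 of the 71 members (81.7%), which comprised 49 of 59 clustered genes (83.1%) and 9 of 12 non-clustered genes (75.0%). The share over all genes of the table was 63.7%. In 12 or more cells, the count was 1 of 59 clustered genes (1.69%) and 7 of 12 non-clustered genes (58.3%), where 27.8% of all genes did so. No protocadherin was found in all 23 cells. Of the 49 clustered genes that were detected, 29 (59.2%) were found in 1 or 2 cells and 15 in 1 cell. None of the 9 detected non-clustered genes was that rare, and 21.5% of all detected genes were.

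**Figure D1:**
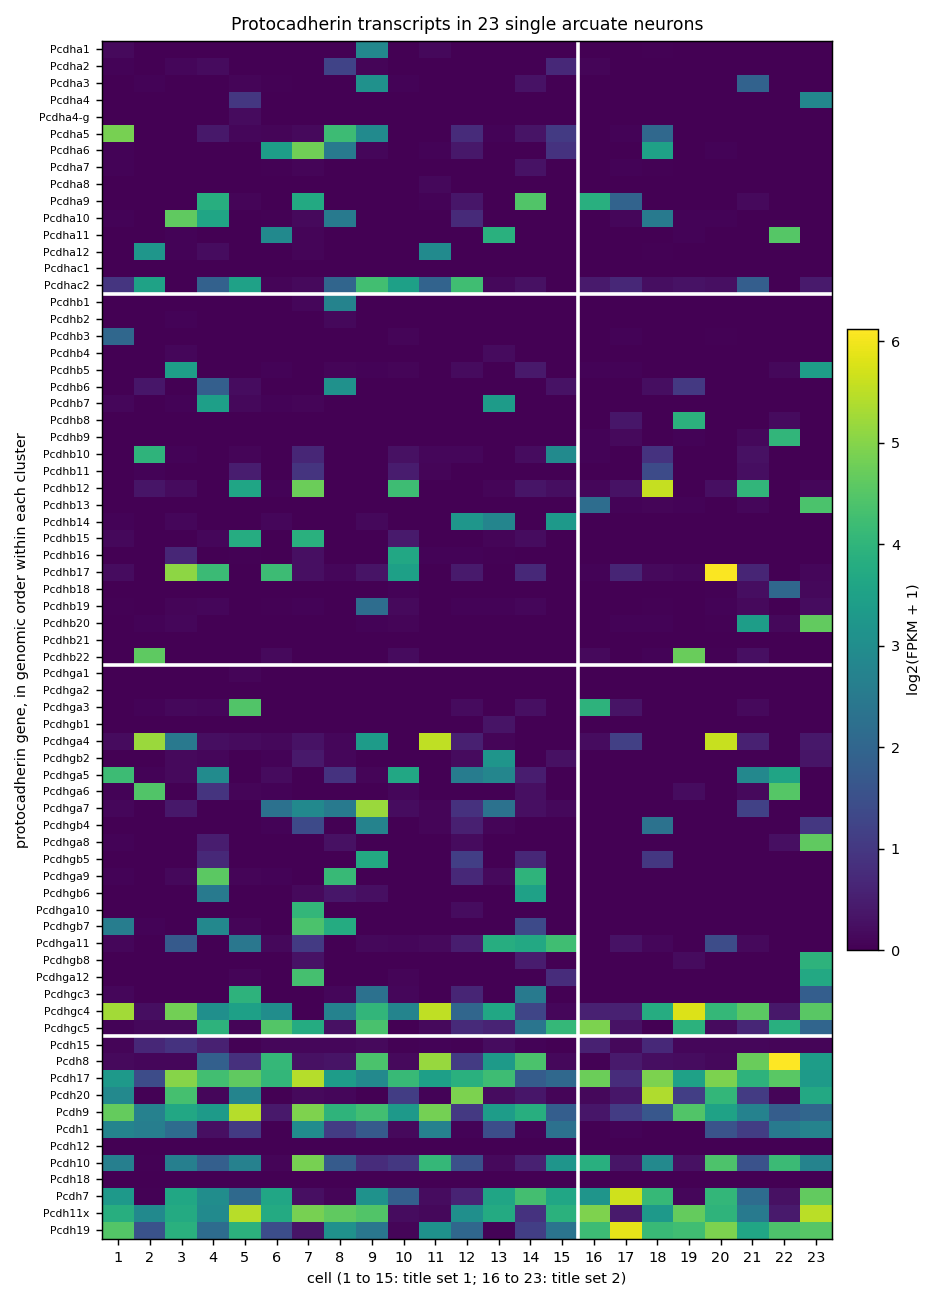
Level of each of the 71 protocadherin genes (rows, in genomic order within Pcdha, Pcdhb, Pcdhg and the non-clustered genes, separated by white lines) in each of the 23 cells (columns), as log2(FPKM + 1) in colour. The clustered rows hold scattered bright fields, mostly at different cells from row to row, with Pcdhgc4 as the fullest row, while Pcdh17, Pcdh9 and Pcdh19 fill most of their rows.

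Where a clustered gene was found, its level was like that of the non-clustered genes. The median of the detected values was 10.3 FPKM for clustered genes (157 values) and 9.87 FPKM for non-clustered genes (147 values), and 14.6 FPKM over all genes. The highest values were 66.8 FPKM of Pcdhb17 in cell 20 and 68.4 FPKM of Pcdh8 in cell 22. At 20 FPKM in at least 1 cell there were 17 clustered genes (28.8%) and 8 non-clustered genes (66.7%), beside 34.0% of all genes. Most values of the clustered genes were near 0: 1060 of 1357 (78.1%) were under 0.1 FPKM, 182 (13.4%) between 0.1 and 5 FPKM and 115 (8.47%) at 5 FPKM or more.

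The number of members per cell was about even between both kinds of gene. The median cell had 13 members, 6 clustered and 6 non-clustered. The total was lowest in cell 17 with 5 members and highest in cells 4, 9 and 23 with 19 each. Clustered genes ran from 2 in cell 17 to 12 in cells 4 and 9, and non-clustered genes from 3 in cell 17 to 9 in cells 21 and 23. By cluster the median cell had 1 alpha gene (0 to 5), 2 beta genes (0 to 3) and 3 gamma genes (1 to 7). Every cell therefore had at least 1 gamma gene, whereas cells 19 and 20 had no alpha gene and cells 11, 14 and 17 no beta gene at this threshold.

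**Figure D2:**
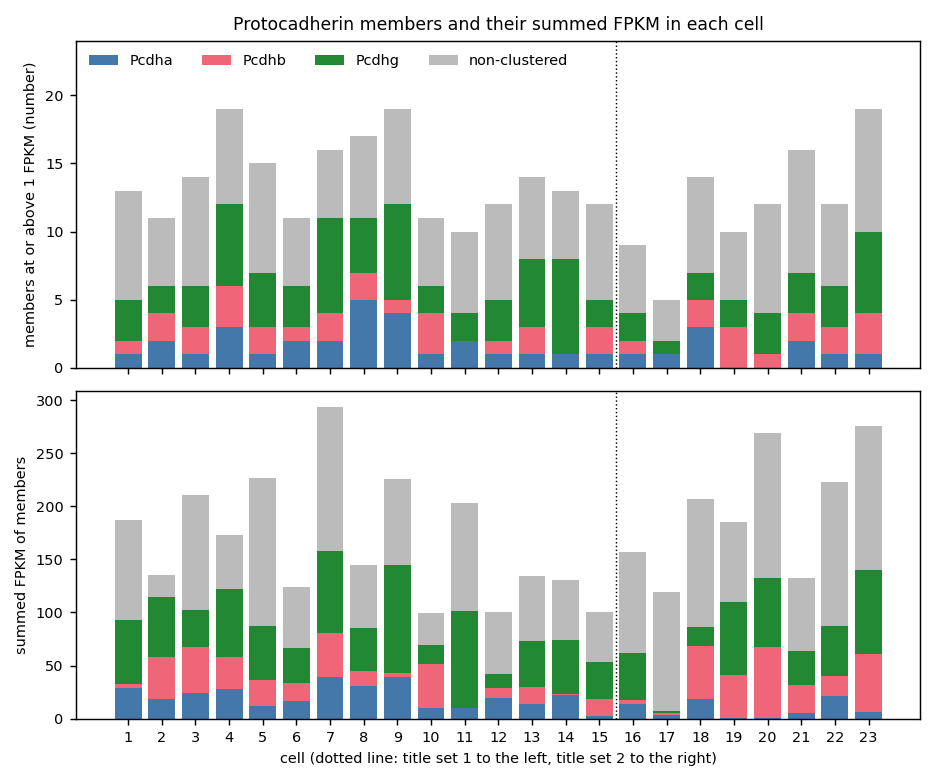
Number of protocadherin members at or above 1 FPKM (upper panel) and their summed FPKM (lower panel) in each of the 23 cells, stacked by cluster with the non-clustered genes in grey; the dotted line parts the title sets. Cell 17 has the fewest members (5) and nearly all of its summed level is non-clustered, while cell 7 has the highest sum of clustered genes (158 FPKM).

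In summed level the gamma cluster had the highest median, and the ranges of all 3 clusters overlapped widely. The gamma genes summed to a median of 46.5 FPKM per cell (2.44 in cell 17 to 102 in cell 9), the beta genes to 18.6 FPKM (0.169 in cell 11 to 67.2 in cell 20) and the alpha genes to 16.3 FPKM (0.282 in cell 20 to 39.4 in cell 7). The order of beta and alpha was not the same in both title sets: set 1 had a median beta sum of 15.6 FPKM and a median alpha sum of 19.7 FPKM, and set 2 had 33.5 FPKM of beta and 6.01 FPKM of alpha. All clustered genes together had a median of 86.8 FPKM per cell (7.42 in cell 17 to 158 in cell 7), and the non-clustered genes 80.9 FPKM (21.4 in cell 2 to 139.5 in cell 5). Cell 17 is the exception among the cells: its non-clustered genes summed to 111.6 FPKM, above the median, and made 93.8% of its protocadherin level, against 15.8 to 61.6% in the other 22 cells. Its few genes overall and its low clustered sum were seen in the same library, and the part of library quality in it was not tested.

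**Figure D3:**
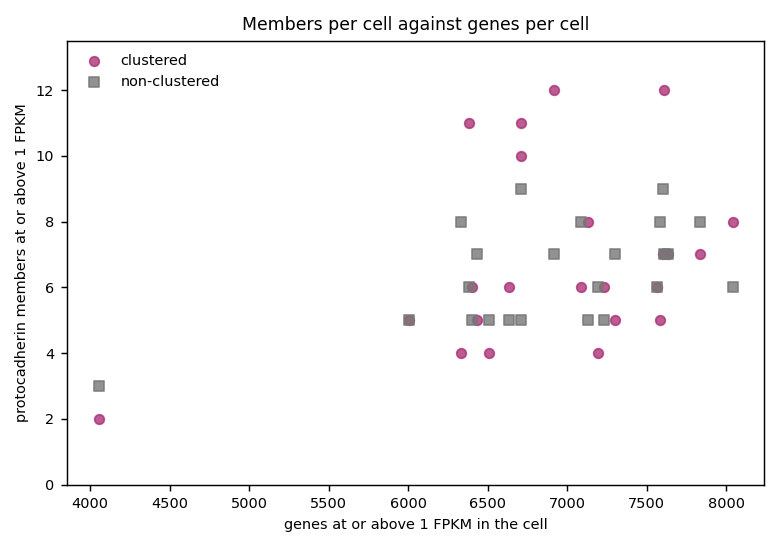
Number of clustered (circles) and non-clustered (squares) protocadherins at or above 1 FPKM in each of the 23 cells (vertical axis) against the number of all genes at or above 1 FPKM in that cell (horizontal axis). Cell 17, at 4054 genes with 2 clustered and 3 non-clustered members, lies alone at the lower left. Among the other 22 cells the points scatter, with Pearson's r of 0.117 for clustered and 0.331 for non-clustered genes.

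The number of members was set beside the number of genes per cell. Over the 23 cells, which share their library method, Pearson's r between members and genes per cell was 0.530 and Spearman's rho 0.422. For clustered genes r was 0.358 and for non-clustered genes 0.553. Without cell 17, left out after the data were seen, r was 0.251 for all members, 0.117 for clustered and 0.331 for non-clustered genes (22 cells). Without cells 17 and 19, the 2 cells farthest from the median number of genes, r was 0.162 for all members, 0.0508 for clustered and 0.258 for non-clustered genes (21 cells). The relation was thus weaker without those cells. Within set 1, which holds neither of them, r was 0.123 for all members (15 cells). It was -0.0531 for clustered and 0.426 for non-clustered genes there. Within set 2, which holds both of those cells, r was 0.727 for all members, 0.678 for clustered and 0.694 for non-clustered genes (8 cells).

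Alpha genes came 1 at a time in most cells. Of the 21 cells with an alpha gene, 12 had 1, 5 had 2 and 4 had 3 or more. The alternate genes Pcdha5 and Pcdha9 were the most frequent, with 5 cells each. Pcdha5 had 27.9, 17.4, 6.65, 3.22 and 1.06 FPKM in cells 1, 8, 9, 18 and 15. Pcdha9 had 20.8, 13.4, 13.4, 12.1 and 2.87 FPKM in cells 14, 16, 4, 7 and 17. These 10 sightings fell in 10 different cells, so no cell had both. Pcdha6 (4 cells, highest 26.8 FPKM in cell 7), Pcdha10 (4 cells, 23.8 FPKM in cell 3) and Pcdha11 (3 cells, 21.6 FPKM in cell 22) were the other alpha genes above 20 FPKM. Pcdha12 reached 8.34 FPKM in cell 2 and 6.57 FPKM in cell 11, and Pcdha3 7.60 FPKM in cell 9 and 2.81 FPKM in cell 21. The leading alpha gene of a cell made a median of 79.6% of that cell's alpha level (41.5 to 100%). Of the 15 genes counted as alpha, 4 reached 1 FPKM in no cell: Pcdha4-g, Pcdha7, Pcdha8 and the C-type gene Pcdhac1, none of them above 0.239 FPKM.

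The beta genes, which share no exons, were each found in few cells. Of 22, 19 reached 1 FPKM in at least 1 cell, no gene in more than 5 cells, and 15 of the 19 in 1 or 2 cells. Pcdhb17 was found in cells 20, 3, 6, 4 and 10 at 66.8, 32.7, 17.2, 17 and 10.2 FPKM. Pcdhb12 was found in cells 18, 7, 10, 21 and 5 at 47.1, 25.8, 17.6, 15.3 and 11.1 FPKM. In the other 18 cells Pcdhb17 did not exceed 0.624 FPKM and Pcdhb12 did not exceed 0.270 FPKM, so both were high or near 0 with little between. Cell 10 was the 1 cell with both. Pcdhb22 had its high values, 25.3 and 23.4 FPKM, in cells 19 and 2, with at most 0.193 FPKM elsewhere, and Pcdhb20 had 24.2 and 9.61 FPKM in cells 23 and 21. Pcdhb6 (highest 7.58 FPKM, cell 8) and Pcdhb14 (8.68 FPKM, cell 15) were found in 3 cells each.

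Few of the beta genes that shared a cell were neighbours in the cluster. The 20 cells with a beta gene had 1 (6 cells), 2 (10 cells) or 3 (4 cells) of them, which made 22 pairs of beta genes within a cell. Of these, 3 (13.6%) were neighbours in genomic order, where 21 of the 231 possible pairs of beta genes (9.09%) are: Pcdhb6 with Pcdhb7 in cell 4, Pcdhb16 with Pcdhb17 in cell 10, and Pcdhb11 with Pcdhb12 in cell 18. In cell 18 Pcdhb11 was at 1.64 FPKM and Pcdhb12 at 47.1 FPKM. The next values of Pcdhb11 were 0.877, 0.402, 0.377 and 0.162 FPKM in cells 7, 5, 10 and 21, which are the other cells with Pcdhb12. Whether reads of Pcdhb12 add to the values of Pcdhb11 was not tested. Pcdhb12 with Pcdhb15 was the 1 pair found in more than 1 cell, at 25.8 and 13.9 FPKM in cell 7 and at 11.1 and 12.8 FPKM in cell 5. The leading beta gene was 1 of 12 genes, depending on the cell, and made a median of 62.1% of the cell's beta level (43.0 to 99.5%). Pcdhb2, Pcdhb4 and Pcdhb21 reached 1 FPKM in no cell, and Pcdhb21 was listed at 0 in all.

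Gamma genes were found in larger numbers per cell. Of the 19 alternate gamma genes, 16 reached 1 FPKM in at least 1 cell. Pcdhga5 and Pcdhga11 were the most frequent, with 7 cells each and peaks of 17.3 FPKM (cell 1) and 17.8 FPKM (cell 15). Pcdhga4 was found in 6 cells, with 47.7, 45.2 and 35.4 FPKM in cells 20, 11 and 2 as its highest. Pcdhga7 was also found in 6, with 35.7 FPKM in cell 9 and at most 6.48 FPKM in any other cell. Pcdhgb7 followed with 5 cells, all of set 1 (highest 19.7 FPKM, cell 7). Pcdhga9 had 22.9, 16.4 and 14.7 FPKM in cells 4, 8 and 14 and at most 0.631 FPKM in the other 20. Of the rarer alternates, Pcdhga8 reached 23.8 FPKM in cell 23 alone, Pcdhga6 21.7 FPKM in cell 22 and 20.8 FPKM in cell 2, and Pcdhga3 21.1 FPKM in cell 5 and 14.5 FPKM in cell 16. Pcdhga1, Pcdhga2 and Pcdhgb1, which lie at the start of the cluster, reached 1 FPKM in no cell. Pcdhgb8, annotated as a polymorphic pseudogene, stood at 14.4 FPKM in cell 23 and at most at 0.381 FPKM elsewhere.

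Place in the cluster went only loosely with the number of cells. Across genes, which are not independent replicates, Pearson's r between genomic order and number of cells was 0.304 for 12 alternate alpha genes, 0.201 for 22 beta genes and 0.222 for 19 alternate gamma genes. When each cluster was split by order, the later beta genes (11) were found in 24 gene and cell combinations and the earlier ones (11) in 14. The later alternate alpha genes (6) were found in 14 and the earlier ones (6) in 14, and the later gamma genes (10) in 27 and the earlier ones (9) in 24.

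The 5 C-type genes were found in 0 to 17 cells, and the alternate genes in 0 to 7. Pcdhgc4, which is known to be needed for the survival of many neurons, was the most widely found clustered gene: 17 of 23 cells, 73.9% (exact Clopper-Pearson 95% interval 51.6 to 89.8%, which covers the counting of cells only). Its level ran from under 0.01 FPKM in cell 7 through a median of 7.28 FPKM to 54.3 FPKM in cell 19, with 45.6 FPKM in cell 11 and 37.7 FPKM in cell 1. The 6 cells without it were cells 2, 7, 15, 16, 17 and 22, at 0.481 FPKM or less. Pcdhgc5, whose protein binds a GABA receptor subunit, was found in 10 cells, 43.5% (23.2 to 65.5%), at 3.01 to 29.3 FPKM, and 4 of the 6 cells without Pcdhgc4 were among them (cells 7, 15, 16 and 22).

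Pcdhac2, which serotonergic axons need in order to spread through their targets, was found in 9 cells, 39.1% (19.7 to 61.5%), with 18.2 FPKM in cell 9 and 17.8 FPKM in cell 12. Of these, 8 were among the 15 cells of set 1 and 1 (cell 21, 2.58 FPKM) among the 8 of set 2. Pcdhgc3, known to promote dendrite branching in the cortex, was found in 4 cells, with 14.6, 4.61, 3.84 and 2.57 FPKM in cells 5, 14, 9 and 23. Pcdhac1 did not rise above 9.57e-08 FPKM in any cell, and a count of 0 in 23 cells allows a share of up to 14.8% by the same interval. Cell 9 had all 4 of the others and cell 17 had none. The C-type genes made a median of 23.3% of the clustered level of a cell, with 62.7% in cell 19 and 8.05% in cell 7.

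**Figure D4:**
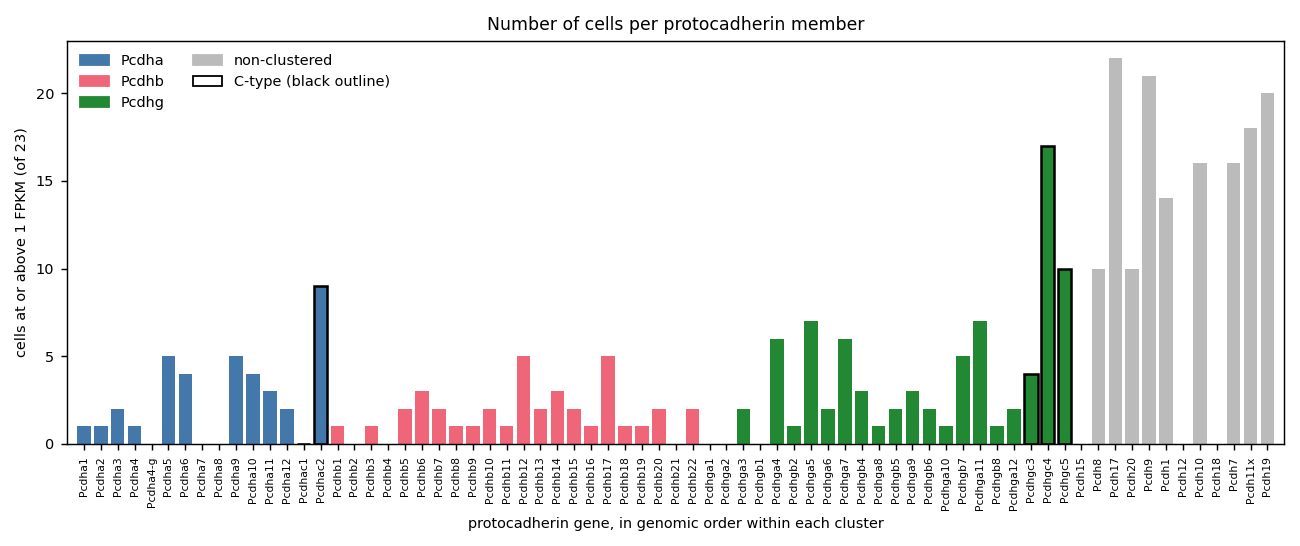
Number of the 23 cells in which each of the 71 protocadherins reached 1 FPKM, in genomic order within each cluster, with bars coloured by cluster and C-type genes outlined in black. No alternate clustered gene exceeds 7 cells, Pcdhgc4 stands at 17, and 7 of the 12 non-clustered genes stand at 14 to 22.

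No 2 cells had the same set of clustered protocadherins. The 23 cells had 23 distinct sets, and this held for the alternate genes alone as well. Over all genes of the table, too, no pair of cells was identical. How many distinct sets the number of genes alone would give was not tested. The C-type genes gave 10 distinct sets and the non-clustered genes 18. Within a cluster, gamma genes gave 22 distinct sets, beta genes 19 and alpha genes 15. The 15 clustered genes found in 1 cell each fell in 10 cells, most of them in cell 23 (Pcdha4, Pcdhga8 and Pcdhgb8) and in cells 8 (Pcdha2 and Pcdhb1), 9 (Pcdha1 and Pcdhb19) and 22 (Pcdhb9 and Pcdhb18). The others were Pcdhb3 in cell 1, Pcdhga10 in cell 7, Pcdhb16 in cell 10, Pcdhgb2 in cell 13, Pcdhb11 in cell 18 and Pcdhb8 in cell 19.

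Pairs of cells shared few clustered genes. The Jaccard index, the number of genes found in both cells divided by the number found in either, had a median of 0.118 over the 253 pairs of cells for clustered genes, 0.571 for non-clustered genes and 0.547 for all genes of the table. Alternate genes gave a median of 0 and C-type genes 0.333. A pair of cells shared no clustered gene in 42 of 253 pairs (16.6%), no alternate gene in 130 (51.4%), no beta gene in 221 (87.4%) and no alpha gene in 186 (73.5%), whereas every pair shared a non-clustered gene. The clustered index was lowest at 0 and highest at 0.667, and the non-clustered index ran from 0.143 to 1. These indices share cells between pairs, so their spread is not a replicate error. An index of this kind also depends on how often its genes are found. The share of values at or above 1 FPKM was 11.6% for clustered, 53.3% for non-clustered and 29.5% for all genes. The part of these shares in the indices was not tested.

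**Figure D5:**
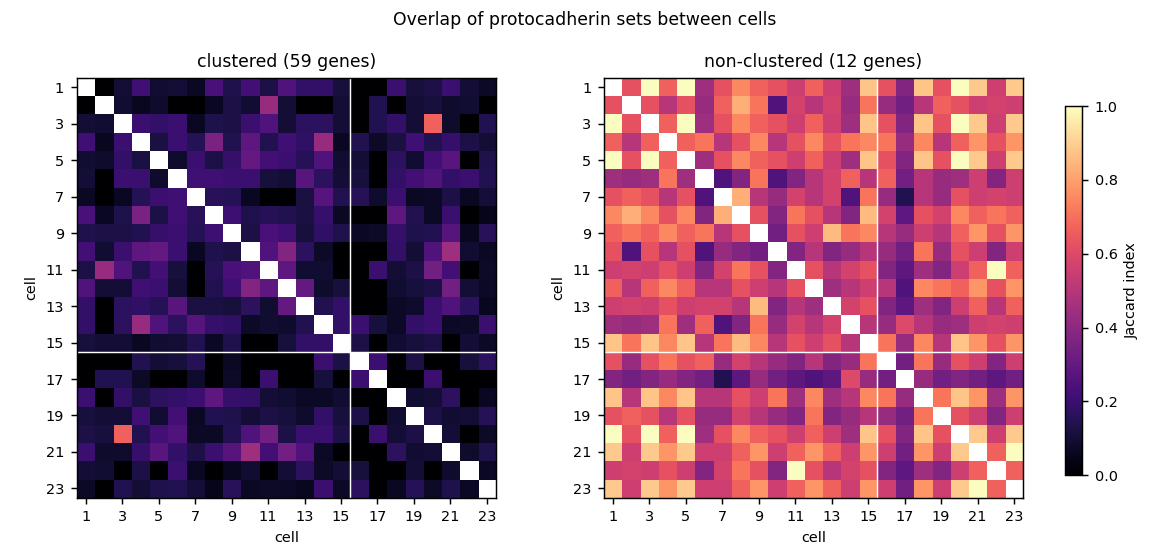
Jaccard index of the protocadherin sets at or above 1 FPKM for each pair of the 23 cells, for the 59 clustered genes (left) and the 12 non-clustered genes (right); both axes are cells and white lines part the title sets. The left panel is mostly dark (median 0.118) with cells 3 and 20 as its brightest pair (0.667), and the right panel is mostly bright (median 0.571).

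Cells 3 and 20 stood out by sharing 4 of 6 clustered genes. In cell 20 and cell 3, Pcdhb17 was at 66.8 and 32.7 FPKM, Pcdhgc4 at 15.8 and 27.2 FPKM, Pcdhga4 at 47.7 and 4.52 FPKM, and Pcdhga11 at 1.66 and 2.31 FPKM. Their gamma sets were identical, and their non-clustered sets, of 8 genes each, were too. Cell 3 had Pcdha10 and Pcdhb5 besides, and cell 20 had no alpha gene. The cells belong to different title sets. The next highest pairs were cells 10 and 21 (4 of 9 genes, 0.444), cells 2 and 11 (3 of 7, 0.429) and cells 4 and 14 (6 of 14, 0.429). Cells 4 and 14 shared Pcdha9, Pcdhga9, Pcdhgb6, Pcdhgb7, Pcdhgc4 and Pcdhgc5.

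The title sets held similar numbers of members. The median was 13 members per cell in set 1 and 12 in set 2, with 6 and 5.5 clustered and 6 and 6.5 non-clustered genes. Clustered genes summed to a median of 86.9 FPKM in set 1 and 86.6 FPKM in set 2, although, as given above, alpha sums were higher in set 1 and beta sums in set 2 by their medians. Gamma genes summed to 50.6 and 45.5 FPKM, and non-clustered genes to 59.5 and 116 FPKM. The median clustered Jaccard index was 0.143 for 105 pairs within set 1, 0.0871 for 28 pairs within set 2 and 0.103 for 120 pairs across the sets. For all genes the medians were 0.556, 0.519 and 0.535. What the titles stand for is not given, and the sets were not tested against each other.

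The delta-1 protocadherins, which carry a motif for binding protein phosphatase 1, were each found in most cells. Pcdh9 was found in 21 of 23 cells, 91.3% (72.0 to 98.9%), with a lowest value of 0.289 FPKM in cell 16, a median of 9.07 FPKM and a highest of 42.4 FPKM in cell 5. Pcdh11x, an X-linked gene, was found in 18 cells (lowest 0.0910, median 12.4, highest 44.0 FPKM in cell 23), and the 5 cells without it were cells 10, 11, 14, 17 and 22. Pcdh7, whose protein inhibits that phosphatase, was found in 16 cells (0.0276, 7.75 and 50.2 FPKM, the last in cell 17). Its values in the 7 other cells were at most 0.537 FPKM. Pcdh1, known as a susceptibility gene for airway hyperresponsiveness, was found in 14 cells at lower levels, with a median of 1.15 FPKM and a highest of 6.80 FPKM in cell 7. Cells 5, 8 and 21 lay just above the threshold, at 1.06, 1.12 and 1.15 FPKM, and no cell without it exceeded 0.189 FPKM. In this group, all cells had at least 2 of the 4 genes.

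The delta-2 protocadherins, which connect to the actin-regulating WAVE complex, ranged from nearly every cell to none. Pcdh17, which acts in the growth of axons and in synapses of the basal ganglia, was the most widely found protocadherin: 22 of 23 cells, 95.7% (78.1 to 99.9%), with a median of 14.5 FPKM and a highest of 42.0 FPKM in cell 7. The exception was cell 17 at 0.722 FPKM. Pcdh19, the X-linked gene of an epilepsy that affects mostly girls, was found in 20 cells, 87.0% (66.4 to 97.2%), with a median of 7.67 FPKM. Each of the 8 cells of set 2 had it, at 11.3 to 58.1 FPKM, as did 12 of the 15 cells of set 1, where its highest value was 21.4 FPKM in cell 1. Cells 7, 10 and 13 were without it, at 0.282 FPKM or less. Pcdh10, linked to autism, was found in 16 cells (lowest 0.0185, median 2.60, highest 28.2 FPKM in cell 7). Pcdh18 was listed at 0 in all 23 cells.

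Pcdh8 and Pcdh20 were high in some cells, near 0 in others and just above the threshold in a few. Pcdh8, called arcadlin for its rise with neuronal activity, was found in 10 cells, 43.5% (23.2 to 65.5%). It reached 68.4, 35.3 and 25.2 FPKM in cells 22, 11 and 21, and its median over all cells was 0.356 FPKM. Pcdh20 was also found in 10 cells, with 40.6, 29.1 and 18.7 FPKM in cells 18, 12 and 3, and a median of 0.288 FPKM. Just above the threshold lay Pcdh20 in cells 21, 10 and 19, at 1.09, 1.17 and 1.21 FPKM, and Pcdh8 in cell 12, at 1.09 FPKM. Both genes were found together in 3 cells (12, 21 and 23), Pcdh8 alone in 7, Pcdh20 alone in 7 and neither in 6. In the 3 shared cells the lower of both values was 1.09 FPKM in cells 12 and 21, and 9.66 FPKM in cell 23. Over the 36 pairs of the 9 detected non-clustered genes, r of log2(FPKM + 1) over the 23 cells, which share their library method, ran from -0.37 (Pcdh8 with Pcdh11x) to 0.55 (Pcdh17 with Pcdh10), with a median of 0.07. With so many pairs over so few cells, no pair is singled out as linked.

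The remaining non-clustered genes were not found. Pcdh15, which forms the tip link of inner ear hair cells together with Cdh23, was highest at 0.852 FPKM in cell 3 and above 0 in every cell. Of 4 hair cell markers, Otof, Ush1c and Cdh23 reached 1 FPKM in 4, 3 and 2 cells and Myo7a in none. Pcdh12, a protocadherin of endothelium, was listed at 0 in all 23 cells. Of 7 endothelial markers, Pecam1 reached 1 FPKM in 5 cells (highest 18.4 FPKM, cell 21) and Ly6c1 in 1 (2.70 FPKM, cell 9), and the other 5 in none, with Cldn5 and Kdr listed at 0 throughout. Their sum per cell was 0 to 18.4 FPKM.

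The promoters of 2 widely found non-clustered genes and of the 2 found in fewer cells are shown. Promoters of the clustered genes were not among those at hand. They run from 250 bases before to 50 bases after the annotated start in RefSeq (GRCm38.p6), written 5' to 3' on the strand of the gene. Capitals mark CGCT or its reverse complement AGCG, the core of a conserved element in clustered protocadherin promoters. Pcdh17 lies at chr14:84443313-84443612 on the plus strand, Pcdh19 at chrX:133688944-133689243, Pcdh8 at chr14:79771263-79771562 and Pcdh20 at chr14:88471347-88471646, these 3 on the minus strand.
Pcdh17: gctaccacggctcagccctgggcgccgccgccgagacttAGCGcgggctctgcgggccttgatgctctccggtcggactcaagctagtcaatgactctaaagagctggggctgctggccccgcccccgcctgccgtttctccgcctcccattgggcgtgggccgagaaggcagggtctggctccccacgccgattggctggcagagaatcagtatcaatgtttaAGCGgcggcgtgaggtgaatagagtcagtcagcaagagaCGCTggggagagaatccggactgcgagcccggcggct
Pcdh19: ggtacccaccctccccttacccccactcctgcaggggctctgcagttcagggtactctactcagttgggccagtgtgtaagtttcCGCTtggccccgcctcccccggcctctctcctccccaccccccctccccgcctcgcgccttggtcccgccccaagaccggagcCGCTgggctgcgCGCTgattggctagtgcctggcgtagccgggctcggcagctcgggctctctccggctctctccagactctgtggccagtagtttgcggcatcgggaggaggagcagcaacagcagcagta
Pcdh8: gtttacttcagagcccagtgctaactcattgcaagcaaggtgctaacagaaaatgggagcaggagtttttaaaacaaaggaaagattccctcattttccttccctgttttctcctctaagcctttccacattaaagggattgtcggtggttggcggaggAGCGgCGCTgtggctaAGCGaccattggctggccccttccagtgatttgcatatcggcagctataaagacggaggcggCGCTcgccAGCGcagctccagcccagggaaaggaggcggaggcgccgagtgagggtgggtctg
Pcdh20: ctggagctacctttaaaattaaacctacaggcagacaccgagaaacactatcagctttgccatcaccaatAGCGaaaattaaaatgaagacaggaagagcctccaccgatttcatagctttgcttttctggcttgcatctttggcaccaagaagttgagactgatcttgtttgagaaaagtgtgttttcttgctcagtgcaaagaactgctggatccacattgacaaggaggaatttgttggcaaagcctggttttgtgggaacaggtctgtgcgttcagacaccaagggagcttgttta

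Of these 4 promoters, those of the widely found genes held more CpG dinucleotides. Pcdh17 had 26 and Pcdh19 18, whereas Pcdh8 had 14 and Pcdh20 4, with a median of 7 over the 32851 promoters of the table. The other members did not keep to that order: Pcdh18, listed at 0 in every cell, had 23 and Pcdh7, found in 16 cells, had 11. The motif occurred 3 times in Pcdh17 and Pcdh19, 5 times in Pcdh8 and 1 time in Pcdh20. It was present in all 10 promoters matched to 9 member genes and in 61.8% of all promoters, so its presence does not set these genes apart. A match of these letters is not evidence of a bound factor.

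Genes of related families and of the machinery around protocadherins were taken from lists. Of 23 classical and other cadherins, 16 passed 1 FPKM in 1 cell or more and 2 in 12 or more: Cdh13, a cadherin anchored by lipid, in 22 cells (median 33.0 FPKM), and the neuronal cadherin Cdh2 in 21 (9.70 FPKM). Cdh4 and Cdh8 were found in 10 cells each and Cdh9 in 7. Of 15 measured large atypical cadherins and calsyntenins, 11 passed it in 1 cell or more and 4 in 12 or more. Clstn3, a synapse organiser, was found in all 23 cells (median 80.5 FPKM), Clstn1 in 22, Celsr3 in 19, Celsr2 in 16 and Clstn2 in 11. Of 28 measured genes of other adhesion families, 27 and 17 did so, and Ncam1 (median 163 FPKM) and Cadm1 (71.0 FPKM) were among those found in all 23 cells.

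Regulators known to act on the clustered promoters differed in how widely they were found. Of 19, 18 were found in 1 cell or more and 11 in 12 or more, where 63.7% and 27.8% of all genes were. Ctcf, which binds these promoters and loops them to their enhancers, was found in all 23 cells at a low level (1.38 to 9.51 FPKM, median 2.52). The corepressor Trim28 was also in all 23 cells (35.1 FPKM), and the DNA methyltransferases Dnmt3a and Dnmt1 in 20 and 18 cells (2.85 and 4.23 FPKM). The third methyltransferase of the list, Dnmt3b, was found in no cell. The others under 12 cells were Pds5a and Wapal (11 each), Wiz (10), Stag2 (7), Smchd1 and Nipbl (5 each) and Rest (1). Of 17 cytoplasmic partners, 17 and 11 did so, with the WAVE complex subunit Brk1 (198 FPKM) and the GTPase Rac1 (140.0 FPKM) in every cell. Marcks was found in 22 cells and Cyfip2 and Pdcd10 in 21 each. Of the 7 genes of the proteases that cut protocadherins, 7 and 5 did so: Psenen was in 23 cells (136 FPKM), Adam10 and Ncstn in 20 each, Aph1a in 15 and Psen2 in 12.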

How the data were processed

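Per the labels' protocols, polyadenylated RNA of hand-sorted cells was amplified by SmartSeq2 and made into NuGen Ovation Rapid libraries. CASAVA 1.8, TopHat and Cufflinks on mm10 are named in the submitters' processing notes; the annotation, the filters and other versions are not given in the sources used. FPKM values came in 1 table that the authors deposited, of 23896 rows, in which 12 leftover summary rows and 286 identical copies were dropped, 27 date-named rows were kept unnamed and rows of 124 symbols were summed, which gave 23400 genes. Each protocadherin had 1 row. FPKM gives no read number, so the depth behind a value is unknown, and amplified copies are counted as reads. File starts were taken to count from 0 and are printed from 1. Assignment of shared exons used GENCODE M21.

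Detection was set at 1 FPKM, with exact Clopper-Pearson 95% intervals for shares of cells. Cells are not replicates, so no test and no p-value was computed. The scripts were tested on simulated data with known sets. Members, lists and alternatives were chosen with earlier results of these data known. Named were the non-clustered and C-type genes, up to 8 of the most frequent genes per cluster, genes at 20 FPKM in a cell and the leading gene of each cluster in each cell. Genes found in 1 cell, genes found in no cell and the shared genes of single pairs of cells were named after their values were seen. Alternatives were other thresholds, rescaling, other row handling, title sets and left-out cells. Of the related lists, Dchs2, Cdhr4, Odz1, Odz2, Odz3 and Odz4 were not used here. Single values of a few list genes are left unreported. The tools were matplotlib 3.10.9, scipy 1.17.1, pandas 2.3.3, numpy 2.4.6 and Python 3.11.15.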

Additional observations from a re-analysis of the deposited data

How the results depend on the processing

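Of 108 values recomputed over 12 alternative settings, 86 moved by less than 1 SD over cells, members or pairs, or, for a count of genes, stayed within 1.5 times, and 22 moved further. All 22 concern the threshold, the scale or the use of set 2 alone. The median number of members per cell, 13 as reported, was 53 for any value above 0, 21 at 0.1 FPKM, 9 at 5 FPKM and 7 at 10 FPKM. For clustered genes, 6 as reported, it was 44 above 0, 12 at 0.1 FPKM and 3 at 10 FPKM, and for non-clustered genes, also 6, it was 10, 8, 4 at 5 FPKM and 3 at 10 FPKM. The median Jaccard index of clustered genes, 0.118 as reported, was 0.822 above 0, 0.227 at 0.1 FPKM and 0 at 10 FPKM, and that of non-clustered genes, 0.571 as reported, was 1, 0.778 and 0.25. The index above 0 counts the residues that Cufflinks leaves in alpha and gamma genes. The median number of cells per member was 22 above 0 for clustered genes (2 as reported) and 5.5 at 10 FPKM and 5.5 in set 2 alone, which has 8 cells, for non-clustered genes (15 as reported). Rescaling each cell to a sum of 1000000 gave medians of 171 for summed clustered and 160 for summed non-clustered genes. At each of the 5 other thresholds, the clustered genes had the lower median index and fewer cells per member. Leaving out cell 17, chosen after the data were seen, gave indices of 0.125 and 0.625 for clustered and non-clustered genes. No paired analysis was possible because the cells form 1 group and the results come from no test. The unknown depth limits what the absence of a gene from a cell shows, and the number of cells limits each share.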

Other observations

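For beta genes found in 1 title set alone, low values were more often above 0 in that set. There were 14 beta genes that reached 1 FPKM in cells of 1 title set alone. Among their values under 1 FPKM, 56 of 147 (38.1%) were above 0 in cells of the same set, and 19 of 154 (12.3%) were above 0 in cells of the other set. For the 8 genes of set 1 these shares were 35.5 and 14.1%, and for the 6 genes of set 2 they were 45.0 and 11.1%. Pcdhb15, at 12.8 and 13.9 FPKM in cells 5 and 7, was above 0 in 5 of the 13 other cells of set 1 and in 0 of the 8 cells of set 2. Pcdhb9, at 15.2 FPKM in cell 22, was above 0 in 4 of the 7 other cells of set 2 and in 0 of the 15 cells of set 1. By gene, the share was higher in the gene's own set for 12 of the 14 and lower for 2. These 2 were Pcdhb11, with 1.64 FPKM in cell 18, above 0 in 1 of 7 further cells of its set and in 5 of 15 of the other set (up to 0.877 FPKM), and Pcdhb3, above 0 in 1 of 14 and in 2 of 8. The genes and their own sets were picked by values of the same cells. The pooled values come from cells that are not replicates. These shares are therefore a description only, and the source of the low values was not tested.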
